A study of Mus musculus with 17 samples.

Results

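The genes described here are 36 mouse genes that earlier work on old haematopoietic stem cells (HSCs) placed in an HSC ageing signature. They were chosen by name, and every array probe that carries one of those names was used. All 36 were on the array, with 50 of its 55681 probes, among 36499 gene names in all. Their RNA was measured on 17 one-colour microarrays in 2 sets of sorted mouse bone marrow cells. The first set held wild-type marrow progenitors that lack lineage markers and Flt3 and carry Sca-1 and c-Kit (LSK cells), split into 3 arrays of CD41-negative and 3 arrays of CD41-positive cells, with no age given. The second set held cells gated as long-term HSCs (LT-HSCs), that is, LSK cells with CD150 and without CD48. It had 3 wild-type arrays at 2 months, 3 wild-type arrays at 12 months, 2 CD41-knockout (CD41-KO) arrays at 2 months and 3 CD41-KO arrays at 12 months. CD41 is integrin alpha-IIb, the product of Itga2b, and the labels do not say how the knockout allele was made. Every array carried amplified RNA from 1000 sorted cells, and 4 to 5 mice were pooled. Whether replicates of a group came from separate pools is not stated, so p-values here measure only how these samples scatter, and that scatter may be technical.

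HSCs are rare marrow cells that renew themselves and give rise to all blood lineages. In mice they become more numerous with age, restore blood less well after transplantation and give fewer lymphoid and relatively more myeloid and platelet cells, and CD41, known best as the platelet fibrinogen receptor subunit, marks part of the HSC pool. The signature gathers genes that several studies found higher in old than in young mouse HSCs. Its members have no single function. They include cell surface receptors, metabolic enzymes, secreted proteins, regulators of transcription, and proteins of membrane traffic and the cytoskeleton.

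The labels held up for the deleted gene. Itga2b lay between 0.42 and 1.01 on the 6 wild-type LT-HSC arrays and between -2.27 and -0.64 on the 5 CD41-KO arrays, as log2 signal relative to the array's 75th percentile, the scale of every level below. The gate markers Kit and Ly6a (Sca-1) were well above background on all 17 arrays, and Slamf1 (CD150) on all 11 LT-HSC arrays. The share of gene spots well above background ran from 82.7% to 98.5% per array. The 3 wild-type arrays at 2 months stood apart in sex-linked genes. Xist, the RNA of the inactive X chromosome, lay between -2.47 and -2.17 on them and between 4.27 and 5.48 on the other 8 LT-HSC arrays, and the Y-linked gene Ddx3y was well above background on these 3 arrays and on none of the other 14. In the wild-type age comparison, in the genotype comparison at 2 months and in the difference between the age effects, age or genotype and sex-linked expression therefore cannot be told apart. The CD41-KO age comparison does not carry that difference. The 3 wild-type arrays at 12 months stood apart in eosinophil genes, with a summed level of the mast cell, basophil and eosinophil list of 3.13 to 3.24, against 0.41 to 1.02 on the other 14 arrays. In this list Prg2, the eosinophil major basic protein gene, rose with age by 3.40 in wild-type LT-HSCs, and the part of such cells in the wild-type results was not tested. The neutrophil list's summed level was 0.54 to 0.74 at 2 and 1.10 to 1.23 at 12 months in wild-type cells. In CD41-KO cells it was 0.40 to 0.52 and 1.08 to 1.42. The stromal list lay at 1.72 to 1.80 and 2.09 to 2.15, and in CD41-KO cells at 1.74 to 1.75 and 2.06 to 2.13. The B cell list lay lower at 12 months in CD41-KO cells (2.06 to 2.14 against 2.33 to 2.45). The part of such cells in the age changes was not tested. Where bulk RNA of a gene is low, fewer cells of a type and less RNA per cell cannot be told apart.

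Most ageing signature genes were higher at 12 than at 2 months, in both genotypes. A probe entered the tests if it was well above background on every array of at least 1 group, and a gene was represented by its brightest such probe. In the LT-HSC set 33 of the 36 members passed, of which 30 were well above background on all 11 arrays. Enpp5, Neo1 and Plscr2 passed through the groups in which they were bright, so that their inclusion rests partly on that brightness. Bmpr1a, Dnm3 and Oit3 did not pass. In wild-type LT-HSCs 21 of 33 members were called higher and 0 lower (limma, Benjamini-Hochberg adjusted over all 33591 genes, threshold 0.05), where 8.93% of all genes were called higher. At an unadjusted limma p under 0.05 the members lower were 0 as well, and with the slide as a block 28 were called higher and 1 lower, against 25.2% of all genes called higher. In CD41-KO LT-HSCs 17 of 33 members were called higher and 0 lower, against 15.8% of all genes called higher. At an unadjusted limma p under 0.05 there was 1 lower member, Mllt3. The median log2 change of the members was 0.75 in wild-type and 0.66 in CD41-KO LT-HSCs, against 0.09 and 0.15 over all genes tested. In 25 of 33 members every wild-type array at 12 months lay above every one at 2 months, and in 24 of 33 the same held for the CD41-KO arrays, while Arhgap29 and Mllt3 lay wholly below there. The share of all genes without such overlap was not computed. The 8.93% and 15.8% of all genes called higher are a stricter measure, so these counts add no support to the calls. Within single slides, which each held both ages, 31, 30 and 32 of 33 members had a positive wild-type change (medians 0.83, 0.67 and 0.84), and 29 and 26 a positive CD41-KO change (medians 0.70 and 0.53). The share of all genes with a positive change within a slide was not computed either, and the whole array leaned upward. Single arrays decided some calls. In wild-type cells Arhgap29, Gstm2, Neo1 and Tm4sf1 lost theirs when 1 of several arrays was left out. In CD41-KO cells Ghr, Gstm2, Osmr and Ramp2 lost theirs without replicate 1 at 2 months, Art4, Sdpr and Tm4sf1 without replicate 2 at 2 months, Art4 and Sdpr also without replicate 1 or 3 at 12 months, and Osmr without replicate 3. Olfactory and vomeronasal receptor genes, which serve the nose, leaned upward with age as well. Of 1260 tested, 447 were called higher and 3 lower in CD41-KO cells (median 0.40) and 185 higher and 18 lower in wild-type cells (median 0.19), and the part of such a lean in the members' changes was not tested.

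**Figure D1:**
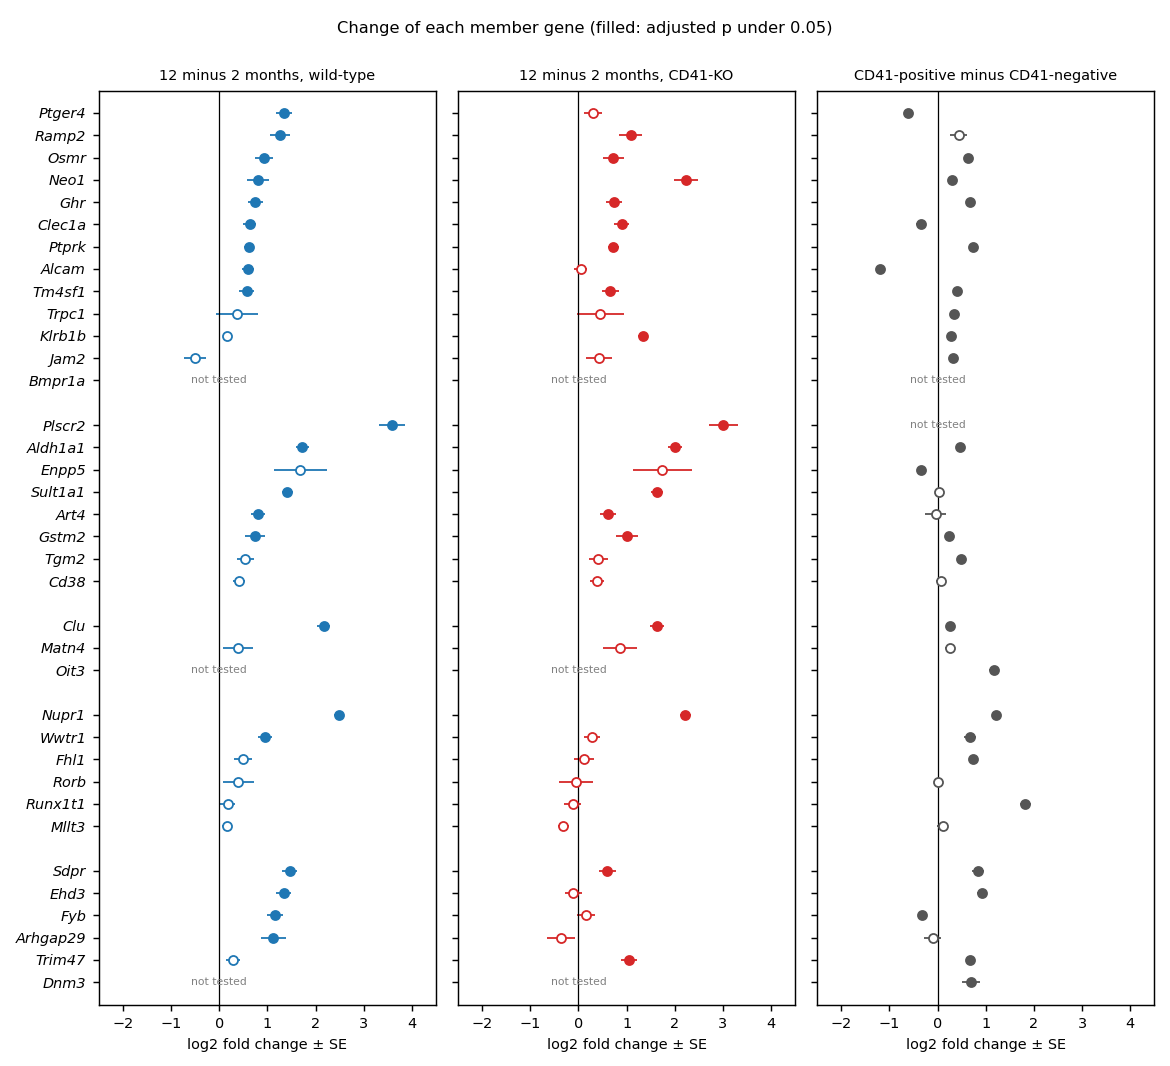
Log2 fold change with its standard error (horizontal bars) for each of the 36 ageing signature genes, grouped by role, in wild-type LT-HSCs with age (left), CD41-KO LT-HSCs with age (middle) and the CD41 sort (right). Filled points passed the test, and in both age panels every filled point lies to the right of 0.

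Among the surface receptors, adhesion molecules and channels, 9 of 12 tested members rose with age in wild-type and 8 of 12 in CD41-KO LT-HSCs, with medians of 0.63 and 0.73. Clec1a, Ghr, Neo1, Osmr, Ptprk, Ramp2 and Tm4sf1 are in both counts. Ptprk, a receptor-type tyrosine phosphatase, lay at -0.78, -0.84 and -0.97 on the wild-type arrays at 2 months and at -0.32, -0.17 and -0.24 at 12 months. On the CD41-KO arrays it lay at -0.80 and -0.83 at 2 months and at -0.07, -0.12 and -0.06 at 12 months. No array at 12 months came near an array at 2 months in either genotype, and the change was 0.62 ± 0.10 (SE, adjusted p = 0.00373) in wild-type and 0.73 ± 0.11 (adjusted p = 0.00154) in CD41-KO cells. Clec1a, a C-type lectin-like receptor, lay at -2.04, -1.81 and -1.86 at 2 months and -1.07, -1.33 and -1.40 at 12 months in wild-type cells, and at -1.55 and -1.71, then -0.63, -0.90 and -0.68, in CD41-KO cells. It rose by 0.64 ± 0.13 and 0.90 ± 0.15 (limma adjusted p = 0.0121 and 0.00204).

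Receptors for circulating or locally made signals rose too. Ghr, the growth hormone receptor gene, lay at -0.59, -0.16 and -0.20 at 2 months and at 0.38, 0.62 and 0.29 at 12 months in wild-type cells. In CD41-KO cells it lay at -0.04 and 0.21, and then at 0.82, 0.96 and 0.70. The changes of 0.75 ± 0.16 and 0.74 ± 0.17 were nearly equal, and both passed (limma adjusted p = 0.012 and 0.00987). Osmr, the oncostatin M receptor subunit, lay at -3.82, -3.31 and -3.68 against -2.67, -2.97 and -2.40 in wild-type cells, and at -3.39 and -3.01 against -2.58, -2.52 and -2.32 in CD41-KO cells. It rose by 0.92 ± 0.19 and 0.73 ± 0.21, without overlap of the ages. Ramp2, the partner protein that turns the calcitonin receptor-like receptor into an adrenomedullin receptor, lay at -3.37, -2.76 and -3.25 against -2.02, -1.80 and -1.77, and in CD41-KO cells at -3.47 and -3.00 against -2.46, -2.06 and -1.92. It rose by 1.26 ± 0.21 and 1.08 ± 0.23. Tm4sf1, a small transmembrane protein gene best known in endothelium, lay at 0.23, 0.02 and 0.27 against 0.96, 0.52 and 0.75, and in CD41-KO cells at 0.30 and 0.05 against 1.00, 0.66 and 0.85. Its rises of 0.57 ± 0.15 and 0.66 ± 0.17 were the smallest among the receptors called, in both genotypes. Of 13 endothelial markers 1 was called higher and 0 lower in wild-type cells, beside 8.93% and 6.17% of all genes, and 1 higher and 4 lower in CD41-KO cells, beside 15.8% and 19.1%. Their part in the result was not tested. The list's summed level was 4.48 to 4.52 at 2 months and 4.20 to 4.33 at 12 months in wild-type cells, and 4.60 to 4.65 against 4.37 to 4.52 in CD41-KO cells. The endothelial cadherin gene Cdh5 was well above background on 2 of the 11 LT-HSC arrays.

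Some receptors rose in 1 genotype's test and not in the other's. Ptger4, the prostaglandin E2 receptor EP4 gene, lay at -4.07, -3.61 and -3.90 on the wild-type arrays at 2 months and at -2.46, -2.62 and -2.45 at 12 months, a rise of 1.35 ± 0.17 (limma adjusted p = 0.000872). On the CD41-KO arrays it lay at -2.54 and -2.49 at 2 months and at -2.09, -2.54 and -2.00 at 12 months, a change of 0.31 ± 0.19 that did not pass (adjusted p = 0.236). The CD41-KO arrays at 2 months were thus at the level of the wild-type arrays at 12 months. Alcam, an adhesion molecule of the immunoglobulin family, lay at -1.36, -1.60 and -1.35 against -0.72, -0.94 and -0.85 in wild-type cells and at -0.69 and -0.82 against -0.56, -0.82 and -0.73 in CD41-KO cells. It rose by 0.60 ± 0.12 in the first and changed by 0.05 ± 0.14 in the second (limma adjusted p = 0.0113 and 0.803). Klrb1b, a lectin-like receptor gene of natural killer cells, showed the other order. Its wild-type arrays lay at -0.65, -0.74 and -0.73 against -0.48, -0.54 and -0.59, and its CD41-KO arrays at -1.42 and -1.39 against 0.02, -0.15 and -0.07. The change was 0.17 ± 0.10 (limma adjusted p = 0.297) in wild-type and 1.34 ± 0.11 (adjusted p = 0.000167) in CD41-KO cells. A dimmer Klrb1b probe changed by 1.24 in wild-type and 1.81 in CD41-KO cells, from signal not well above background at 2 months. The near-flat wild-type change of Klrb1b thus rests on its brightest probe. Of 7 tested T and NK cell markers 2 were called higher and 1 lower with age in CD41-KO cells, and their summed level was 2.88 to 2.96 at 2 months and 2.68 to 2.89 at 12 months. Neo1, the neogenin receptor gene, was not well above background on any LT-HSC array except the 3 CD41-KO arrays at 12 months, which lay at -3.26, -3.46 and -3.25. Against the CD41-KO arrays at 2 months (-5.57 and -5.53) this was at least 3.53-fold higher, a bound set by the lowest signal well above background. In wild-type cells both ages were below that limit (-5.98, -5.88 and -5.03, then -4.95, -4.78 and -4.74), so the call there has no fold. Jam2, a junctional adhesion molecule, and the cation channel gene Trpc1 passed in neither genotype without the block. Jam2 changed by -0.51 ± 0.23 in wild-type and 0.43 ± 0.26 in CD41-KO cells by its brightest probe. Its other kept probes gave positive values, 1.10 and 1.11 in wild-type and 0.50 and 1.44 in CD41-KO cells. With the slide as a block Jam2 was called lower in wild-type (limma adjusted p = 0.0406) and higher in CD41-KO cells (adjusted p = 0.0443). Trpc1 had 1 wild-type array at 12 months at -0.67 beside -2.31 and -2.77, and its change of 0.36 ± 0.43 (limma adjusted p = 0.65) rests on that array.

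Of the 8 enzymes, 5 rose with age in each genotype, and all 8 had positive changes in both. Plscr2, of the phospholipid scramblase family, was well above background at 12 months and not at 2 months. At 2 months it stood at -6.49, -5.71 and -6.32 on the wild-type and -5.66 and -6.42 on the CD41-KO arrays. At 12 months it stood at -2.48, -2.78 and -2.49 and at -2.68, -3.41 and -3.03. It was therefore at least 4.08-fold higher in wild-type and at least 4.29-fold higher in CD41-KO cells (limma adjusted p = 3.62e-05 and 0.00033). It passed the filter on dim probes through the arrays at 12 months, so its call adds no support to the count of enzymes. Its probe lies on mouse build mm9, chromosome 9, from 92192504 to 92192563. Aldh1a1, which oxidises retinaldehyde to retinoic acid, lay at 0.75, 0.53 and 0.52 on the wild-type arrays at 2 months and at 2.46, 2.20 and 2.31 at 12 months. In CD41-KO cells it lay at 0.43 and 0.38 and then at 2.56, 2.25 and 2.41. Each genotype's arrays at 12 months stood well clear of those at 2 months, and the rises were 1.73 ± 0.13 and 2.00 ± 0.14 (limma adjusted p = 3.17e-05 and 0.000155), or 3.31-fold and 4.00-fold. Sult1a1, a sulfotransferase of phenols and drugs, lay at 0.82, 0.81 and 0.72 against 2.20, 2.09 and 2.31 in wild-type and at 0.60 and 0.56 against 2.34, 2.14 and 2.17 in CD41-KO cells. The rises of 1.42 ± 0.11 and 1.63 ± 0.12 were 2.67-fold and 3.10-fold.

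By their brightest probes Gstm2, Art4, Cd38 and Tgm2 changed less. Gstm2, a glutathione transferase, lay at 0.20, 0.88 and 0.43 against 1.03, 1.42 and 1.28 in wild-type cells and at 0.25 and 0.75 against 1.56, 1.63 and 1.37 in CD41-KO cells. It rose by 0.74 ± 0.20 and 1.02 ± 0.23 (limma adjusted p = 0.0372 and 0.00765), and the lowest array at 2 months lay on the same slide as the lowest at 12 months in wild-type cells. The size depends on the probe. The other Gstm2 probes, well above background on all arrays, changed by 1.57 and 0.79 in wild-type and by 1.73 and 0.86 in CD41-KO cells. Art4, an ADP-ribosyltransferase of the red cell surface, lay at -0.65, -0.96 and -0.75 against 0.06, -0.09 and 0.09, and in CD41-KO cells at -0.58 and -0.84 against 0.06, -0.37 and 0.03. Its rises were 0.81 ± 0.15 and 0.62 ± 0.17, and no ages overlapped. Enpp5 was well above background on 1 of the 3 wild-type arrays at 2 months, at -3.02, and not on the others, at -5.55 and -5.18, so no size is given for its wild-type change. It did not pass in either genotype (limma adjusted p = 0.0692 and 0.0519) and did in wild-type cells with the slide as a block (adjusted p = 0.033). Cd38, an ectoenzyme that consumes NAD, changed by 0.41 ± 0.13 and 0.39 ± 0.14, and Tgm2, tissue transglutaminase, by 0.54 ± 0.17 and 0.42 ± 0.19. Neither passed without the block, and both passed in both genotypes with it, at adjusted p between 0.000524 and 0.0374.

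Clu and Nupr1 rose most among the secreted proteins and the regulators of transcription. Clu encodes clusterin, a secreted chaperone. It lay at 0.02, -0.18 and -0.03 on the wild-type arrays at 2 months and at 2.26, 1.90 and 2.14 at 12 months, and on the CD41-KO arrays at 1.00 and 0.76 and then at 2.55, 2.44 and 2.55. The rise was 2.17 ± 0.13 (4.49-fold, limma adjusted p = 6.14e-06) in wild-type and 1.64 ± 0.14 (3.11-fold, adjusted p = 0.000228) in CD41-KO cells. Its probe lies on chromosome 14 from 66600325 to 66600382 (mm9). Matn4, a matrilin of the extracellular matrix, differed between slides more than between ages, with 1.17, 2.05 and 1.40 against 1.69, 2.32 and 1.78 in wild-type cells. Its changes of 0.39 ± 0.31 and 0.86 ± 0.35 did not pass, and with the slide as a block they did (adjusted p = 0.00318 and 7.16e-05).

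Nupr1, a small nuclear protein that cells make under stress, lay at 1.04, 1.16 and 1.00 at 2 months and at 3.62, 3.45 and 3.57 at 12 months in wild-type LT-HSCs. In CD41-KO cells it lay at 1.83 and 1.77 and then at 4.06, 4.00 and 4.00. No array at 12 months came near one at 2 months, and the rises were 2.48 ± 0.10 (5.58-fold, limma adjusted p = 3.51e-07) and 2.22 ± 0.11 (4.65-fold, adjusted p = 2.79e-05). Wwtr1, which encodes the co-activator TAZ of the Hippo pathway, lay at -3.19, -3.40 and -3.64 against -2.35, -2.58 and -2.44 in wild-type cells, a rise of 0.95 ± 0.15 (adjusted p = 0.00282). In CD41-KO cells it lay at -3.09 and -3.40 against -2.88, -2.91 and -3.09, a change of 0.29 ± 0.16 (limma adjusted p = 0.202, and 0.0251 with the slide as a block). The remaining 4 regulators, the LIM protein gene Fhl1, the nuclear receptor gene Rorb, the corepressor gene Runx1t1 and the chromatin reader gene Mllt3, did not pass in either genotype without the block. With it Fhl1 and Rorb were called higher in wild-type cells (limma adjusted p = 0.049 and 0.0419) and Mllt3 lower in CD41-KO cells (adjusted p = 0.0132). Their unblocked changes ran from 0.16 to 0.50 in wild-type and from -0.31 to 0.11 in CD41-KO cells. Fhl1 is the 1 member on the X chromosome.

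Of 5 tested members in signalling, membrane traffic and the cytoskeleton, 4 rose with age in wild-type cells and 2 in CD41-KO cells, with medians of 1.16 and 0.15. Sdpr (now named Cavin2), which encodes a coat protein of caveolae, lay at 0.69, 0.39 and 0.45 against 2.12, 1.83 and 1.95 in wild-type cells. In CD41-KO cells it lay at 0.99 and 0.64 against 1.54, 1.17 and 1.54. It rose in both, by 1.46 ± 0.16 and 0.60 ± 0.18 (limma adjusted p = 0.000366 and 0.0247). Ehd3, an ATPase of endosome recycling, lay at -1.76, -2.23 and -1.89 against -0.58, -0.84 and -0.46 in wild-type cells and at -0.89 and -0.98 against -0.99, -1.22 and -0.90 in CD41-KO cells. Its wild-type arrays at 2 months were the low ones, and the changes were 1.33 ± 0.16 (adjusted p = 0.00065) and -0.10 ± 0.18 (limma adjusted p = 0.679). Fyb, an adaptor of T cells and platelets, lay at -0.91, -1.32 and -1.02 against 0.18, -0.22 and 0.27, and in CD41-KO cells at -0.35 and -0.54 against -0.19, -0.50 and -0.17. It rose by 1.16 ± 0.17 in wild-type cells and changed by 0.15 ± 0.19 in CD41-KO cells. Arhgap29 lay at -2.97, -3.33 and -4.01 against -2.27, -2.58 and -2.10, and in CD41-KO cells at -2.36 and -2.37 against -2.45, -3.06 and -2.65. The wild-type rise of 1.12 ± 0.26 (limma adjusted p = 0.0192) was lost without wild-type replicate 1 or replicate 3 at 12 months, with quantile normalization, normexp, the authors' table or the mean of its probes, and with only the groups compared in the fit. A dimmer probe of the gene had the opposite sign (-0.75). Trim47, a ubiquitin ligase family gene, lay at 1.23, 0.91 and 0.99 against 1.46, 1.13 and 1.37 in wild-type cells and at 0.60 and 0.33 against 1.59, 1.35 and 1.63 in CD41-KO cells. It changed by 0.28 ± 0.15 in the first (limma adjusted p = 0.247, and 0.0145 with the slide as a block) and rose by 1.05 ± 0.16 (limma adjusted p = 0.0015) in the second.

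**Figure D2:**
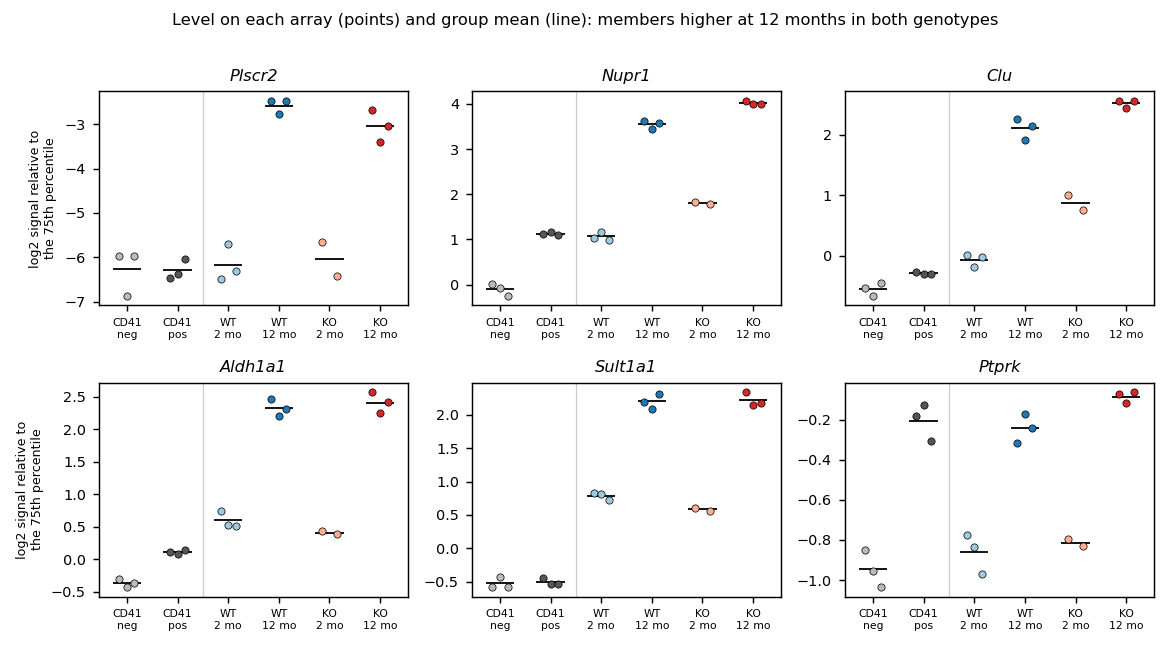
Level of 6 ageing signature genes on each array (points) with the group mean (line), as log2 signal relative to the array's 75th percentile, for the CD41 sort (left of the grey line) and the 4 LT-HSC groups. For each gene the arrays at 12 months lie above those at 2 months in both genotypes, and for Nupr1 the means rise from 1.07 to 3.55 in wild-type and from 1.80 to 4.02 in CD41-KO cells.

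Promoter sequences are shown for the members whose age change kept its call under every alternative setting in both genotypes, or whose age change differed between genotypes under every setting. The first set has 7 members, and RefSeq promoter entries (build GRCm38.p6) were found for 4 of them. The second set is Ehd3 and Klrb1b. In all, 27 of the 36 members matched an entry, with 36 start sites. Each sequence is the 250 bases before the start, 5′ to 3′ on the gene's strand, and where a gene had 2 starts the one nearer its 3′ end is shown. Capitals mark matches, on either strand, to GATAA (GATA factors), TGTGGT (RUNX), CGGAAG (ETS), TGANTCA (AP-1) or GGAATG (TEAD). The ETS and TEAD letters share GGAA and can overlap. Nupr1 is at chr7:126625471-126625720 (minus strand), Sult1a1 at chr7:126676419-126676668 (minus), Aldh1a1 at chr19:20601718-20601967 (plus), Ptprk at chr10:28074570-28074819 (plus), Ehd3 at chr17:73804591-73804840 (plus) and Klrb1b at chr6:128826309-128826558 (minus).
Nupr1: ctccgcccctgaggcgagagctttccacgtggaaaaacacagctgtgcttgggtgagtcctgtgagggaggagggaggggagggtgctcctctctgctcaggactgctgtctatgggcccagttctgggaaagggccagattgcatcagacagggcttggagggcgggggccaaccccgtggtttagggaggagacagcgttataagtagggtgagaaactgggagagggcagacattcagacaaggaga
Sult1a1: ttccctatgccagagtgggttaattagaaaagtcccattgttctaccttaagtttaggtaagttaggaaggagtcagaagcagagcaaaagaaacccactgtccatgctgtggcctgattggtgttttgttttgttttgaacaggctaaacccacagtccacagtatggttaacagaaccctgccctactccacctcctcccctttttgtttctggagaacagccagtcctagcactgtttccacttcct
Aldh1a1: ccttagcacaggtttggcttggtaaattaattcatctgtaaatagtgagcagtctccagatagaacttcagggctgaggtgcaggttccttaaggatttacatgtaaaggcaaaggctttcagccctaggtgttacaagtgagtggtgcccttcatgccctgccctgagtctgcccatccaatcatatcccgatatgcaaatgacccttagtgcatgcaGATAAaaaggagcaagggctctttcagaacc
Ptprk: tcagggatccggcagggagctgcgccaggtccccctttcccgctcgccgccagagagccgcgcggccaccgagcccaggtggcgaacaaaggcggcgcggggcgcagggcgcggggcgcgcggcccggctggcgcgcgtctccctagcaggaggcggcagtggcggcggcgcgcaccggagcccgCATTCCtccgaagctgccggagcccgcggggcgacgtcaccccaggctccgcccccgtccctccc
Ehd3: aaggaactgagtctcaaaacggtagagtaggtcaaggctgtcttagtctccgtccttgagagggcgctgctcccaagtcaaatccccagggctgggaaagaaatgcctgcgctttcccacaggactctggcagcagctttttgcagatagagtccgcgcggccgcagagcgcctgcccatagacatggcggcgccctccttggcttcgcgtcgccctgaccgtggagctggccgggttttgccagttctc
Klrb1b: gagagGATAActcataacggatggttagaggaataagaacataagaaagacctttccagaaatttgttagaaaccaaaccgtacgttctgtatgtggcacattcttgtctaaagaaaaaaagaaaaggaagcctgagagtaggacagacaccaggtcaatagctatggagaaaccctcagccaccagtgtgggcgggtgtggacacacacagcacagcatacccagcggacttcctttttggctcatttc
Over the 36 member windows GATAA was found in 27.8%, TGTGGT in 11.1%, CGGAAG in 0, TGANTCA in 8.33% and GGAATG in 19.4%. Over all 32851 promoter windows of the same length the shares were 22.6%, 14.0%, 13.6%, 6.75% and 12.6%. A match describes letters and not a bound site. The Ptprk window held 38 CpG pairs and the Sult1a1 window 0, so the members that moved together with age did not share a base composition there. Nupr1 and Sult1a1 are near neighbours: their probes lie 0.0496 Mb apart on chromosome 7 (mm9, from 133766978 to 133767037 and from 133816605 to 133816664). Fyb and Osmr lie 0.169 Mb apart on chromosome 15, Ptger4 lies 1.41 Mb from Fyb and 1.91 Mb from Ghr on that chromosome, and Tm4sf1 and Wwtr1 lie 0.168 Mb apart on chromosome 3. Where in a transcript each probe lies was not analysed here.

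Both genotypes raised largely overlapping sets of members. The 15 members called higher in both made up 71.4% of the wild-type list and 88.2% of the CD41-KO list. Over all genes the 1332 shared calls made up 44.4% and 25.1%. Across the 33 members, which are not independent and share slides between genotypes, the age changes of the genotypes correlated at 0.65 (Pearson) and 0.43 (Spearman), against 0.29 and 0.45 over all genes. The rank correlation was thus no higher than over all genes. Plscr2 and Neo1, which passed the filter through groups in which they were bright, are in the shared list and in these correlations. Plscr2 had the largest change in both genotypes, from signal below background at 2 months, and its part in the Pearson value was not tested. The difference between the age effects, CD41-KO minus wild-type, was called for 7 of 33 members, where 9.68% of all genes were called in either direction. It was 2 members with the larger rise in CD41-KO and 5 with the larger rise in wild-type cells. With the slide as a block 14 members were called, 5 with the larger rise in CD41-KO and 9 in wild-type cells, against 15.4% and 21.1% of all genes. The block added Jam2, Matn4 and Trim47 to the first and Alcam, Clu, Mllt3 and Wwtr1 to the second. The call depended on single arrays: 2 members remained called without CD41-KO replicate 1 or 2 at 2 months or wild-type replicate 1 or 3 at 12 months, 3 without wild-type replicate 3 at 2 months or CD41-KO replicate 1 or 3 at 12 months, and 4 without wild-type replicate 2 at 2 months or CD41-KO replicate 2 at 12 months.

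**Figure D3:**
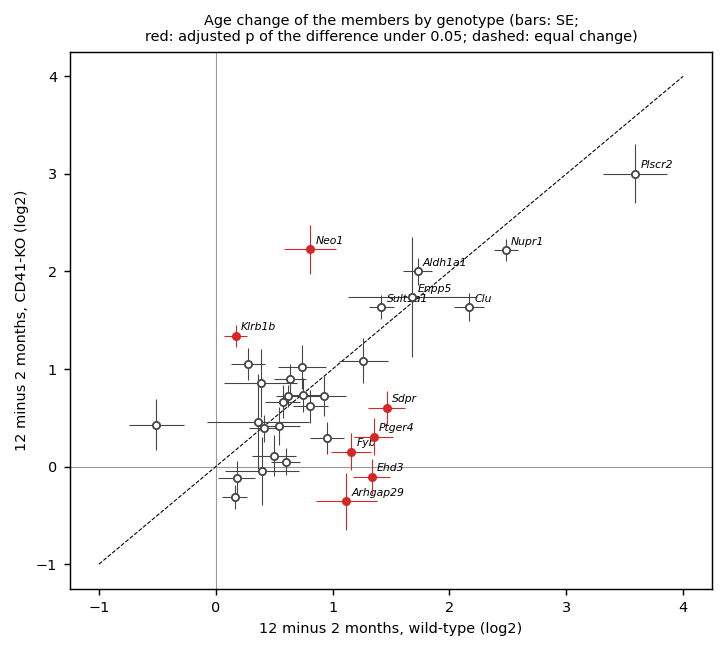
Age change of 33 ageing signature genes in wild-type (horizontal axis) and CD41-KO LT-HSCs (vertical axis), as log2 fold change with standard errors. Red points are the 7 members whose changes differed between genotypes, with Arhgap29, Ehd3, Fyb, Ptger4 and Sdpr below the dashed line of equal change and Klrb1b and Neo1 above it, the last measured above background in 1 group only.

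The 5 members with the smaller rise in CD41-KO cells were Arhgap29 (-1.47 ± 0.39, limma adjusted p = 0.0439), Ehd3 (-1.44 ± 0.24, adjusted p = 0.00748), Ptger4 (-1.04 ± 0.25, adjusted p = 0.0327), Fyb (-1.01 ± 0.26, adjusted p = 0.0382) and Sdpr (-0.86 ± 0.24, adjusted p = 0.0493). In Arhgap29, Ehd3 and Ptger4 the CD41-KO arrays at 2 months already lay above each of the wild-type arrays at 2 months, by 1.07 ± 0.29, 1.03 ± 0.18 and 1.34 ± 0.19, and all 3 differences passed the test. Ptger4 kept this call at 2 months under each alternative run, while Arhgap29 lost it in 10 of 14 and Ehd3 in 2. Fyb was 0.64 ± 0.19 higher there (limma adjusted p = 0.0573, and 0.000919 with the slide as a block). Klrb1b (1.17 ± 0.15, limma adjusted p = 0.00195) had the larger rise in CD41-KO cells by its brightest probe. Neo1 was called the same way, but it was not well above background in 3 of the 4 groups and was tested because of the fourth, so no size is given for its difference. Ehd3 and Klrb1b kept the call under each alternative run, and the other 5 lost it under at least 7. Among the 5 signalling and membrane traffic members, 4 differed between genotypes, and among the 8 enzymes 0 did (limma, lowest adjusted p 0.419, and 0 at an unadjusted p under 0.05). Of all genes 9.68% were called, so 0 of 8 does not set the enzymes apart. Of the 4 signalling members, Ehd3 alone kept the call under each alternative run. The wild-type arrays at 2 months that lie low for Ehd3, Arhgap29, Fyb and Ptger4 are the same 3 arrays that lack Xist, so that genotype and sex-linked expression cannot be told apart in these differences.

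**Figure D4:**
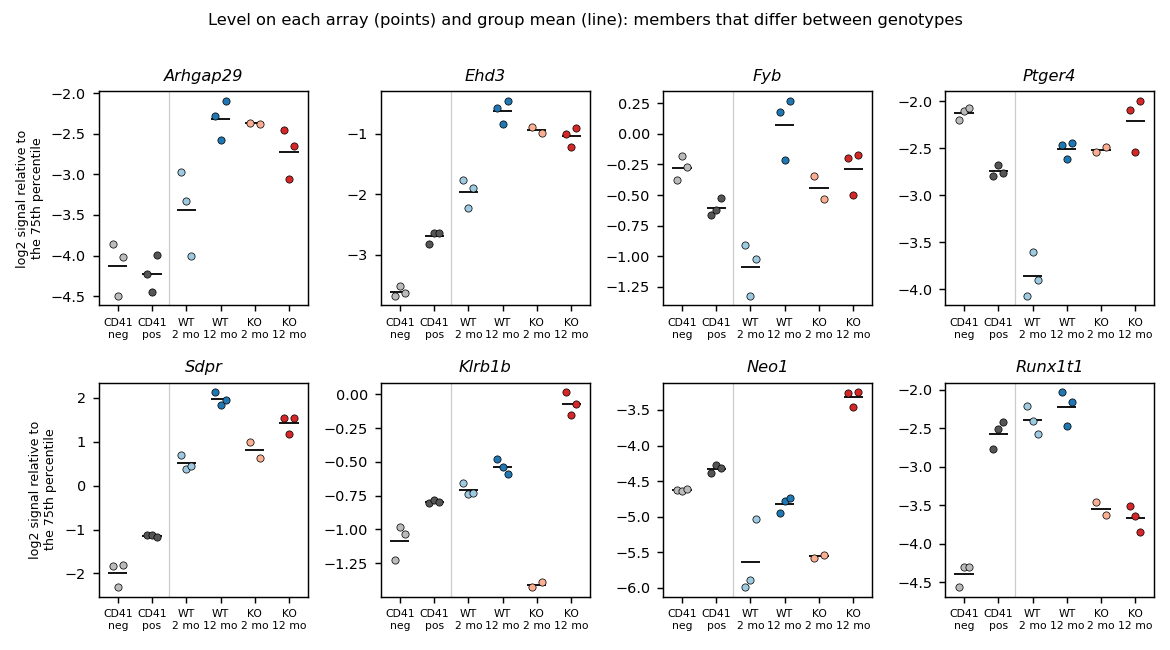
Level on each array (points) and group mean (line) of 8 ageing signature genes, as log2 signal relative to the array's 75th percentile. In Arhgap29, Ehd3, Fyb and Ptger4 the wild-type arrays at 2 months are the low LT-HSC group, Klrb1b is low in CD41-KO cells at 2 months, and Runx1t1 is lower in CD41-KO than in wild-type cells at both ages.

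The genotypes themselves differed in a minority of members. At 2 months 10 of 33 were called, 7 higher and 3 lower in CD41-KO cells, against 11.9% of all genes called. Besides Ptger4, Arhgap29 and Ehd3 the higher members were Clu (0.94 ± 0.14), Nupr1 (0.74 ± 0.11), Alcam (0.68 ± 0.14) and Mllt3 (0.47 ± 0.12), and the lower ones were Runx1t1 (-1.14 ± 0.18), Klrb1b (-0.70 ± 0.11) and Trim47 (-0.58 ± 0.16). Without CD41-KO replicate 1 at 2 months 5 were called. Of 14 alternative runs Trim47 lost its call in 8, Mllt3 in 6, Alcam and Klrb1b in 2, and Clu and Nupr1 in 1. The block added Fyb, Ghr and Sdpr to the higher members and Jam2 to the lower ones. At 12 months, where the sex-linked genes did not separate the genotypes, 4 of 33 were called, against 5.2% of all genes. Neo1 was at least 2.49-fold higher, and Klrb1b (0.47 ± 0.10) and Nupr1 (0.47 ± 0.10) were higher in CD41-KO cells. Neo1 passed the filter only through these CD41-KO arrays at 12 months, so its call adds no support to the count. Runx1t1, which encodes the corepressor ETO, was lower. It lay at -2.21, -2.40 and -2.58 at 2 months and -2.03, -2.47 and -2.16 at 12 months on the wild-type arrays, and at -3.45 and -3.63, then -3.51, -3.64 and -3.84, on the CD41-KO arrays. Every CD41-KO array thus lay below every wild-type array, by 1.14 in the mean at 2 months (2.21-fold, limma adjusted p = 0.00335) and by 1.44 at 12 months (2.72-fold, adjusted p = 0.00161). Runx1t1 and Nupr1 were called in the same direction at both ages, and Klrb1b in opposite directions. At 12 months 2 members remained called without wild-type replicate 1, 2 or 3 or CD41-KO replicate 1 or 3, and with the slide as a block 7 were called higher and 7 lower, against 13.7% and 15.7% of all genes. The block added Clec1a, Clu, Ghr and Matn4 to the higher and Ehd3, Fhl1, Fyb, Rorb, Sdpr and Wwtr1 to the lower members.

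In the CD41 sort the members moved in both directions. Of 34 tested members 21 were higher in CD41-positive cells, against 37.7% of all genes, and 5 were lower, against 21.1%. More of the members than of all genes were called higher, but the whole array leaned the same way: the median change was 0.33 over the members and 0.17 over all 35463 genes, and 0.28 and 0.11 after centring each array on the median. CD41-negative and CD41-positive arrays sat in different rows of 1 slide, and the effect of the row cannot be told apart from that of CD41. Olfactory and vomeronasal receptor genes leaned toward CD41-positive cells too, with 726 of 1318 higher, 55 lower and a median of 0.31, and the part of this lean in the members' differences was not tested. Left-out single arrays cost Clec1a, Clu, Gstm2, Jam2 and Klrb1b their calls, among them CD41-positive replicate 2 in each case. Bmpr1a and Plscr2 were not tested there. Plscr2 was well above background on 1 of the 6 sort arrays. Dnm3 was below that limit on 1 CD41-positive array, and the other 33 tested members were above it on all 6.

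By the probes used, the 4 highest members in the sort were Runx1t1, Nupr1, Oit3 and Ehd3. Runx1t1 lay at -4.56, -4.30 and -4.30 in CD41-negative and at -2.77, -2.51 and -2.42 in CD41-positive cells, and was higher by 1.82 ± 0.12 (3.53-fold, limma adjusted p = 2.3e-05). Nupr1 lay at 0.01, -0.07 and -0.24 against 1.11, 1.16 and 1.09, a difference of 1.22 ± 0.08 (2.33-fold). Oit3 lay at -4.14, -4.24 and -4.35 against -3.27, -2.95 and -3.00, a difference of 1.17 ± 0.10, and was not well above background on any LT-HSC array. Ehd3 lay at -3.67, -3.50 and -3.64 against -2.81, -2.63 and -2.63, a difference of 0.91 ± 0.08. In these 4 genes the CD41-positive arrays stood above the CD41-negative arrays without overlap. The ranking depends on the probe. Other probes, well above background on all arrays, gave 1.70 for Tgm2 (0.48 by the probe used) and -0.57 for Art4 (-0.04 by the probe used). The 4 lowest members by the probes used were Alcam, Ptger4, Enpp5 and Clec1a. Alcam lay at -0.38, -0.25 and -0.23 against -1.51, -1.52 and -1.40 and was lower in CD41-positive cells by 1.19 in the mean (2.28-fold lower, limma adjusted p = 2.31e-05). Ptger4 lay at -2.20, -2.10 and -2.07 against -2.79, -2.67 and -2.77, a difference of -0.62 ± 0.07. Enpp5 lay at -3.66, -3.64 and -3.55 against -4.09, -3.93 and -3.88, and Clec1a at -2.70, -2.98 and -2.72 against -3.08, -3.26 and -3.09. Their differences were -0.35 ± 0.08 and -0.35 ± 0.10. The CD41-positive arrays of these 4 genes lay below the CD41-negative arrays without overlap. By role, 4 of 6 transcription members, 8 of 12 receptors, 4 of 6 signalling members, 3 of 7 enzymes and 2 of 3 secreted proteins were higher, and 3 receptors, 1 enzyme and 1 signalling member (Fyb, -0.33 ± 0.08) were lower. Of all genes 37.7% were called higher and 21.1% lower, so the enzyme counts do not set the enzymes apart.

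Gene by gene, the size of the sort change said little about the size of the age change. Across the 32 members tested in both sets the sort change correlated with the wild-type age change at r = 0.01 and with the CD41-KO age change at r = 0.08, where all genes gave 0.16 and 0.49. The sets share no array, and members are not independent of each other. The members higher in all 3 comparisons were Aldh1a1, Clu, Ghr, Gstm2, Neo1, Nupr1, Osmr, Ptprk, Sdpr and Tm4sf1. Of these, Neo1 was below background at both ages in wild-type cells, and its sort call was lost with quantile normalization, normexp and the authors' table. A second Ghr probe had the opposite sign in the sort (-0.19). Art4, Clec1a, Ramp2 and Sult1a1 rose with age in both genotypes and were not called higher in the sort. Ramp2 did not pass there at 0.44, a larger change than the 0.39 of Tm4sf1, which passed. Fhl1, Jam2, Runx1t1, Tgm2 and Trpc1 were higher in the sort and, without the slide as a block, called with age in neither genotype. With the block Tgm2 was called higher with age in both genotypes and Fhl1 in wild-type cells. Jam2 was then called lower in wild-type and higher in CD41-KO cells. The place of Jam2 among these genes rests on its brightest probe, and its sort call was lost with the mean of its probes. Another Jam2 probe, well above background on all arrays, changed by 0.002 in the sort. With age that probe changed by 1.11 in wild-type and 1.44 in CD41-KO cells. Alcam, Clec1a, Fyb and Ptger4 rose with age in wild-type cells and were lower in CD41-positive cells.

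The difference between the age change and the sort change was tested in 1 fit over all 17 arrays. With wild-type cells 13 of 32 members were called, 11 with the higher value for age and 2 with the higher value for the sort, against 22.6% of all genes in either direction. With CD41-KO cells 13 of 32 were called as well, 11 and 2, against 19% of all genes. Sult1a1 rose with age and did not pass in the sort. It lay at -0.58, -0.43 and -0.58 in CD41-negative and -0.44, -0.54 and -0.53 in CD41-positive cells, so that age exceeded the sort by 1.39 ± 0.13 and 1.61 ± 0.14 (limma adjusted p = 5.21e-06 and 7.02e-06). Clu (1.91 ± 0.15 and 1.38 ± 0.16), Aldh1a1 (1.26 ± 0.15 and 1.53 ± 0.16), Alcam (1.78 ± 0.15 and 1.24 ± 0.16), Ptger4 (1.97 ± 0.20 and 0.93 ± 0.21), Clec1a (0.98 ± 0.17 and 1.24 ± 0.18) and Nupr1 (1.26 ± 0.13 and 1.00 ± 0.13) also had the higher age value in both genotypes. For Alcam and Ptger4 this difference includes their lower level in CD41-positive cells (-1.19 and -0.62), and their CD41-KO age changes (0.05 and 0.31) had not passed. Clec1a likewise combined a rise with age and a lower level in the sort. Runx1t1 was called the other way in both, by -1.64 ± 0.21 and -1.94 ± 0.22. Ehd3, higher in the sort and with age in wild-type cells, gave 0.42 ± 0.19 (limma adjusted p = 0.142, and 0.00909 with the replicate block) in wild-type and -1.01 ± 0.20 (adjusted p = 0.00328) in CD41-KO cells. With that block the calls for wild-type age also took in Gstm2, Ramp2 and Sdpr with the higher age value and Trim47 with the lower one. Those for CD41-KO age took in Fyb, Matn4, Ramp2 and Trim47 with the higher age value and Mllt3 with the lower one, and lost Enpp5. For Ptprk and Ghr, by the probes used, the age and sort changes differed by no more than 0.12 in either genotype. Standard errors ran up to 0.19, so this does not show that they are equal. A second Ghr probe, well above background on all arrays, gave other values. It changed by -0.19 in the sort and by 0.69 and 0.96 with age in wild-type and CD41-KO cells. Fyb and Tgm2 were represented by different probes in the separate fits of both sets.

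**Figure D5:**
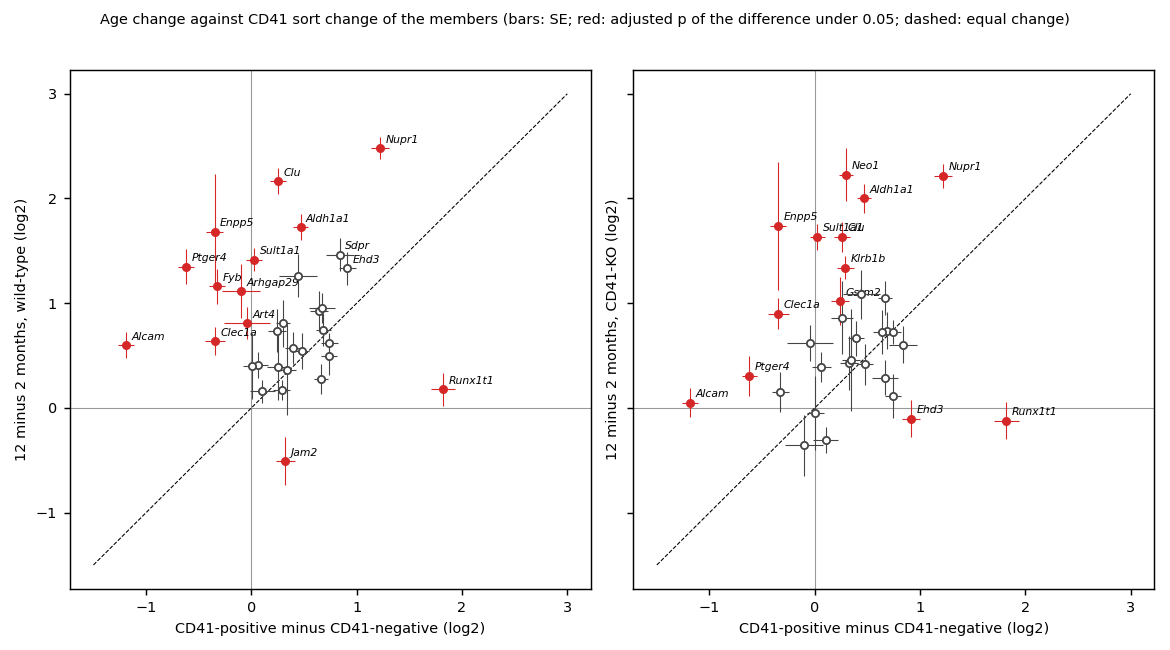
Age change in wild-type (left) and CD41-KO LT-HSCs (right) against the CD41 sort change of 32 ageing signature genes, as log2 fold changes with standard errors from the separate fits. Red points differed between age and sort, and most of them lie above the dashed line of equal change, while Runx1t1 lies far below it in both panels.

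Other genes linked to HSC ageing were read from lists chosen with the same knowledge. They stand beside 8.93% of all genes called higher and 6.17% lower with age in wild-type cells, and 15.8% and 19.1% in CD41-KO cells. Of 27 further genes reported higher in old HSCs, 11 were called higher and 2 lower with age in wild-type cells, and 11 higher and 3 lower in CD41-KO cells. The metallothionein gene Mt2 rose by 5.38 ± 0.18 and 4.99 ± 0.21, and Selp, the P-selectin gene, by 4.02 ± 0.17 and 2.01 ± 0.19. In the CD41 sort 12 of 26 were higher and 6 lower, beside 37.7% and 21.1% of all genes. Of 17 tested lymphoid priming genes, reported lower in old HSCs, 6 were called lower and 1 higher with age in wild-type cells and 7 lower and 2 higher in CD41-KO cells, with Cd34 at -1.47 ± 0.16 and -1.86 ± 0.18. Cd34 is also among the HSC gate markers. The medians of the 17 genes were 0.004 and 0.10, and 9 of 17 were positive in each genotype, so these genes as a whole did not lean lower with age. In the sort 13 of 18 were lower and 3 higher, led by Dntt at -2.42 ± 0.11. Of 22 megakaryocyte and platelet genes 5 were called higher and 1 lower with age in wild-type cells, and 4 higher and 5 lower in CD41-KO cells, the latter shares close to those of all genes. Selp is a member of the first and of the last of these lists.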

How the data were processed

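The members and the gene lists were chosen with earlier results of these data known. The deposited scanner files are, per the file headers, Agilent Feature Extraction output of one-colour arrays, and their processed signals are intensity values that the scanner software had background-corrected, on a linear scale. The authors' deposited value table holds log2 values with array medians of 9.46 to 9.48 (CD41 sort) or 8.07 to 8.08 (LT-HSCs), and was used as an alternative. Its values correlated at 0.9997 or more with normexp-corrected signals, and its software is not given in the sources used.

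Levels were log2 of the processed signal minus the array's 75th percentile. Control spots and spots marked as outliers (104 to 264 per array) were left out, and 0 spots of the genes named were saturated. Gene names came from the files and, for 26300 probes, from RefSeq accessions. Tests used limma 3.58.1 in R 4.3.3 with Benjamini-Hochberg adjustment. The CD41 sort was fitted alone over 35463 genes, the 4 LT-HSC groups together over 33591, and age minus sort over 33453. Replicate correlations were 0.976 to 0.998. The number of arrays limits the precision. Genes were given array by array if called in an age comparison or in the difference between them, or among the 4 highest or 4 lowest members in the sort, and others by range. For lists, up to 4 genes of smallest p could be named.

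In the LT-HSC set a replicate number marks 1 slide, per the labels and file headers. Deviations of same-numbered arrays from their group means correlated at 0.35 to 0.73 in 15 of 15 pairs, so the numbers pair the arrays, and a fit with the slide as a block is given where it changed a call. The script was tested on simulated data. Alternatives were other scalings and background correction, filters, probe rules, the block and leaving out each array.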

Additional observations from a re-analysis of the deposited data

Results flagged for a closer look

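The age change differed between CD41-KO and wild-type LT-HSCs in 7 members, by the test of the difference itself (limma, CD41-KO minus wild-type). The values were -1.47 for Arhgap29, -1.44 for Ehd3, -1.04 for Ptger4, -1.01 for Fyb, -0.86 for Sdpr, 1.17 for Klrb1b and 1.42 for Neo1, on the log2 scale. The Neo1 value rests on signal below background in 3 of the 4 groups and has no size. Of these, Ehd3 and Klrb1b passed under every alternative run. Wild-type cells at 2 months also differed from the other groups in Xist and Ddx3y, so genotype and sex-linked expression cannot be told apart here.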

How the results depend on the processing

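With the slide as a replicate block, genes called rose to 14500 for age in wild-type, 20820 for age in CD41-KO, 12292 for the difference between them, 12387 and 9871 for genotype at 2 and 12 months, and 14204 and 12859 for age minus sort in wild-type and CD41-KO cells. Members called were then 14 for the difference and 14 for genotype at 12 months, and 1 member was lower with age in each genotype. In CD41-KO cells 1 lower member was also called with quantile, normexp, the authors' table or median centring. With only the groups compared in the fit, genes called were 2882 for age in wild-type, 974 and 732 for genotype at 2 and 12 months, and members 2 and 2. With median centring 4 members were called for the difference and 2 for genotype at 12 months. Jam2's wild-type age minus sort value turned from -0.83 to 0.40 with the mean of its probes, which averages probes of opposite sign. In the sort it is unclear whether the numbers pair the arrays. Deviations of same-numbered arrays correlated at 0.47, 0.04 and 0.50, and those of unlike numbers at -0.52 to 0.14. A block gave 23 members higher and 5 lower there, with 25103 genes called against 20867 without it.

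Leaving out 1 array gave 17 to 23 members higher and 4 to 6 lower in the sort (16142 to 20373 genes called), 17 to 20 higher and 0 lower with age in wild-type (2850 to 4374), and 13 to 17 higher and 0 lower in CD41-KO cells (5375 to 9954, lowest without CD41-KO replicate 1 at 2 months). It gave 2 to 6 members for the difference (904 to 3263), 5 to 9 and 2 to 3 for genotype at 2 and 12 months (1027 to 3512 and 493 to 1033), and 9 to 14 and 11 to 12 for age minus sort (6094 to 7854 and 4540 to 6300). Under every setting 17 of 21 wild-type age calls, 10 of 17 CD41-KO age calls and 19 of 26 sort calls kept their side of the threshold. Of the values of called members under alternatives, 1489 kept direction and call, 231 lost the call and 1 turned. Signals below background limit Plscr2, Neo1 and Enpp5.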
